A study of Mus musculus with 12 samples.

Results

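Glycolysis and the response to low oxygen were followed through 38 mouse genes: 16 glycolytic enzymes, 6 genes of glucose and lactate transport and of flux control, 14 further genes known to be induced by hypoxia and 2 alpha subunits of hypoxia-inducible factor (HIF). A gene was taken from array rows annotated to its symbol alone, by the row with the highest mean. This gave values for 36 of the 38 genes among 19937 measured genes, and Gpi1 and Eno1, enzymes of the upper and lower pathway, had no such row, so that their expression is not analysed here and they enter the promoter counts alone. The expression values come from 12 Affymetrix MoGene 1.0 ST arrays of C57Bl6 mouse liver material, 3 in each of 4 groups. In the Yap-on organoids, per the labels, Yap had been expressed for 3 weeks in the animal and then for 2 weeks of culture with doxycycline. In the Yap-off organoids, Yap had also been on for 3 weeks in the animal and was off for the 2 weeks of culture without doxycycline. Wild-type organoids were cultured for 2 weeks under wild-type conditions, and the libraries labelled hepatocyte hold YFP-positive cells that FACS had isolated from livers without induction. Organoids are small cell structures grown in culture, and Yap is the transcriptional coactivator restrained by the Hippo pathway. The labels used here name neither the promoter that drives Yap or YFP nor the number of animals behind each group, so the tests weigh differences against the variation among these arrays alone, and that variation may be technical.

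Glycolysis turns glucose into pyruvate, which is either passed to mitochondria or reduced to lactate by lactate dehydrogenase. HIF is made of an alpha and a beta subunit: when oxygen is ample, prolyl hydroxylases mark the alpha subunit for destruction, and when oxygen falls it accumulates and switches on glycolytic enzymes, glucose transporters and genes of blood vessel growth, pH control and mitochondrial turnover. Hepatocytes are known for the reverse route, gluconeogenesis, and for the low-affinity glucose transporter Slc2a2, whereas bile duct cells lack most of that machinery.

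Facts of the whole data set bear on how the groups can be read. Neither the hepatocyte nor the wild-type organoid label held libraries of 1 kind. Lyz2, a macrophage lysozyme, stood at 11.56 and 12.16 (log2 intensity) in wild-type organoids 1 and 3 and 12.04 in hepatocyte 2, against 6.19 in wild-type organoid 2 and 5.28 and 6.30 in hepatocytes 1 and 3. In the same order, endothelial markers averaged 10.1, 9.28 and 7.72, against 3.08, 3.36 and 3.37. Neutrophil markers averaged 8.32, 8.59 and 9.17, against 3.19, 4.05 and 4.12. Lymphocyte markers averaged 7.57 and 7.25 in wild-type organoids 1 and 3, 2.86 in wild-type organoid 2 and 2.98 to 3.36 in hepatocytes. Krt19, a bile duct keratin, took the opposite split, at 9.28 in wild-type organoid 2 and 10.21 and 9.82 in hepatocytes 1 and 3, against 4.28 and 4.92 in wild-type organoids 1 and 3 and 4.95 in hepatocyte 2. Of the other biliary markers measured, Krt7 and Sox9 split in the same way. Epcam, Cldn4 and Prom1 did not split clearly, at 3.23 to 4.95 over all wild-type organoid and hepatocyte libraries. Xist, the RNA that silences 1 X chromosome in female cells, was at 3.30, 3.14 and 3.26 in wild-type organoids 1 to 3 and at 8.82, 3.00 and 9.0 in hepatocytes 1 to 3. Whether the labels of hepatocyte 2 and wild-type organoid 2 were exchanged or the groups mixed was not tested, so what hepatocytes 1 and 3 and wild-type organoids 1 and 3 hold rests on labels that these markers put in doubt. Results that use these groups are therefore given with and without hepatocyte library 2 and wild-type organoid library 2. Yap1 itself was at 7.28 to 7.45 in Yap-on and 6.88 to 7.35 in Yap-off organoids and did not pass the test (log2 difference 0.23, SE 0.14, limma adjusted p = 0.237). Whether its array row reads the induced Yap transcript is not given in the labels used here. The mean of 8 hepatocyte markers was 4.41 to 4.62 in Yap-on and 10.8 to 11.1 in Yap-off organoids, and 2 of them in Yap-on and 7 to 8 in Yap-off organoids were above the array median. The mean of 6 biliary markers was 9.68 to 9.87 in Yap-on and 5.90 to 6.37 in Yap-off organoids. Macrophage markers averaged 3.66 to 3.80 and 3.87 to 4.33 and endothelial markers 3.05 to 3.13 and 3.20 to 3.36 in Yap-on and Yap-off organoids, around or under the array medians of 4.14 to 4.34. Xist was at 3.14 to 3.20 in Yap-on and 8.49 to 9.20 in Yap-off organoids. The Y-linked genes ran the other way, with Eif2s3y at 7.13 to 7.42 in Yap-on and 2.50 to 2.85 in Yap-off organoids. Kdm5d was at 6.36 to 7.08 and 3.33 to 3.76, and Uty at 5.63 to 6.08 and 2.47 to 2.57, in the same order. Yap-on libraries thus had a male and Yap-off libraries a female pattern, so that sex and Yap state cannot be told apart. Eif2s3y was at 6.19, 7.05 and 7.11 in wild-type organoids 1 to 3 and at 2.78, 6.81 and 2.88 in hepatocytes 1 to 3. The sex pattern therefore also differed between Yap-off and wild-type organoids. Without hepatocyte 2 and wild-type organoid 2, it differed as well between hepatocytes and both Yap-on and wild-type organoids. Group and sex cannot be told apart there either. The part of the cell-type markers in the results below was not tested, and in RNA from many cells fewer cells of a type and less RNA per cell cannot be told apart.

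The first comparison asked how the genes differed between organoids in which Yap stayed on and those in which it was withdrawn. Of the 36 genes, 27 were higher and 1, Slc2a2, was lower in Yap-on than in Yap-off organoids at an adjusted p under 0.05 (limma on the 6 arrays, Benjamini-Hochberg over all genes). Over all 19937 genes, 19.1% were called higher and 12% lower. The rises covered 11 of 14 measured enzymes, 4 of 6 transport and flux genes, 11 of 14 hypoxia-induced genes and 1 of 2 HIF alpha subunits. The median log2 difference was 1.15 over the 36 genes and -0.08 over all genes, with 0.93 for the enzymes, 0.87 for transport and flux and 1.36 for the hypoxia-induced genes. The 27 genes called higher and Slc2a2 were also without overlap between the groups, as were 24.6% of all genes in the upward and 28.9% in the downward direction. The count depended on which arrays set the error: with all 12 arrays in the fit, 6 genes were called higher (Pdk1, Car9, Ankrd37, P4ha1, Mxi1 and Kdm3a) and Slc2a2 lower, against 7.09% and 4.36% of all genes. Leaving out hepatocyte library 2 and wild-type organoid library 2, 26 were higher and 1 lower on the other 10 arrays, against 18.9% and 10.8% of all genes.

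**Figure D1:**
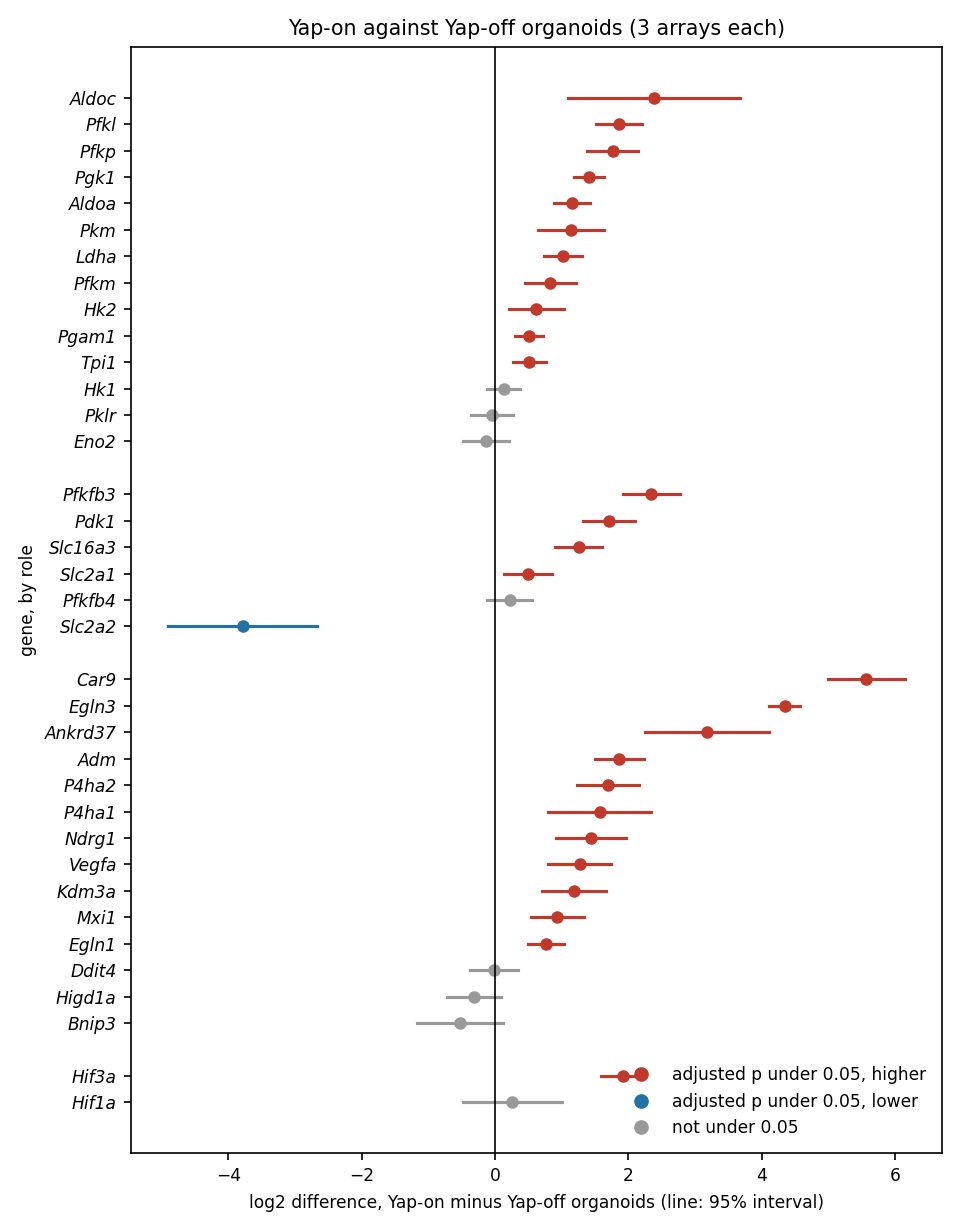
Log2 difference between Yap-on and Yap-off organoids (horizontal axis, 3 arrays each, line: 95% interval) for the 36 measured genes, in blocks from top to bottom of enzymes, transport and flux genes, hypoxia-induced genes and HIF alpha subunits. Car9 and Egln3 lie farthest to the right at 5.57 and 4.35, and Slc2a2 alone lies far to the left at -3.78.

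HIF binds DNA at a short core that can read ACGTG, and promoters are shown to let a reader see where these letters lie or are missing. The core can also read GCGTG, which was not searched or marked, so a promoter without a match may still hold that form. The 5 letters of ACGTG were searched on both strands (ACGTG and CACGT) in the 250 bases before each start site in RefSeq promoters of build GRCm38.p6. The same letters lie within CACGTG, the E-box bound by other factors, so a match names no factor. Of the 37 listed genes with a RefSeq promoter (Ndrg1 is not in the table), 21 (56.8%) held a match at a listed start, against 18.5% of 27025 genes in the table. Some members have more than 1 listed start, and counted by promoter, 25 of 56 (44.6%) held one, against 16.6% of all 32851 promoters. By role, matches stood in 10 of 13 hypoxia-induced genes, 7 of 16 enzymes, 3 of 6 transport and flux genes and 1 of 2 HIF alpha subunits. The promoters printed were chosen after the matches were known: 5 genes that rose and hold a match, 2 that rose and hold none, and Slc2a2, which fell. Other genes that rose without a match included Aldoc, Hif3a, Pfkp and Pdk1. Capitals below mark the searched core or the E-box, and each sequence ends at the last base before the start, 5′ to 3′ on the strand of the gene.
Car9, chr4:43506876-43507025, plus strand, core at -18: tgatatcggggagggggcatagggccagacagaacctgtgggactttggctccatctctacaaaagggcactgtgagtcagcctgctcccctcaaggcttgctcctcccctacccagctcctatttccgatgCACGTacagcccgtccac
Ankrd37, chr8:45999851-46000100, minus strand, cores at -241 and -6: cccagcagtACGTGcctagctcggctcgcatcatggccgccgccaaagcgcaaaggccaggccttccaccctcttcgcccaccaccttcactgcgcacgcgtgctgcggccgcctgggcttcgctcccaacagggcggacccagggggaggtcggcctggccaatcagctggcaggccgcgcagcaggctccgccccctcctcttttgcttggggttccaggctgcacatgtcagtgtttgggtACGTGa
Egln3, chr12:54203875-54204124, minus strand, core at -229: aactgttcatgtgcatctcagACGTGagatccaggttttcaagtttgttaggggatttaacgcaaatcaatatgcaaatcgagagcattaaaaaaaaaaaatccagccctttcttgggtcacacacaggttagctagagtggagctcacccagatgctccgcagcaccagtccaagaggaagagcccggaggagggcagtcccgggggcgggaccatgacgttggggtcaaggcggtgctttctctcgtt
Pfkfb3, chr2:11502091-11502240, minus strand, E-box at -53, the start with CACGTG of 2 starts: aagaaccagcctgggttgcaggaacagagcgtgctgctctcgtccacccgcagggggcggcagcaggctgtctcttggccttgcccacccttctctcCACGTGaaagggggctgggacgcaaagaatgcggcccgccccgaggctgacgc
Ldha, chr7:46845654-46845803, plus strand, E-boxes at -145 and -48 and a core at -34, 1 of 2 starts, the other without a match: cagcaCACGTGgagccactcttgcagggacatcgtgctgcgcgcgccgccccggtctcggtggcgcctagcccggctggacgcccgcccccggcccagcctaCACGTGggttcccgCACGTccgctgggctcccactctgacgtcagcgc
Adm, chr7:110627507-110627656, plus strand, a gene that rose, no match in these bases: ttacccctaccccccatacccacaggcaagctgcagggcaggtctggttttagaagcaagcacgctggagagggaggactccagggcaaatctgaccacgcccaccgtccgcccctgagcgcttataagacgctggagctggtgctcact
Pfkl, chr10:78009808-78009957, minus strand, a gene that rose, no match in these bases: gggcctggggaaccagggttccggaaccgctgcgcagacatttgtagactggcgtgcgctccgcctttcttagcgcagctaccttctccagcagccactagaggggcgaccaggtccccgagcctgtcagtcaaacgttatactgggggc
Slc2a2, chr3:28697753-28697902, plus strand, the gene that fell, no match in these bases: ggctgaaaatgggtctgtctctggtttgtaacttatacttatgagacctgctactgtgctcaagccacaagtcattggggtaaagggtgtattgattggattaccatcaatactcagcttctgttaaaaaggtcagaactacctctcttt

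Among the hypoxia-induced genes Car9 differed most. Car9, the membrane carbonic anhydrase that handles acid outside the cell, stood at 9.22, 8.97 and 8.33 in Yap-on organoids, against 3.07, 3.53 and 3.21 in Yap-off organoids. Its log2 difference was 5.57 (SE 0.24, adjusted p = 9.17e-06), and since all Yap-off values lay under their array median and no detection calls were used, no fold is given. Egln3, a prolyl hydroxylase that is itself switched on by HIF, stood at 9.91, 9.90 and 9.74 in Yap-on and at 5.46, 5.56 and 5.48 in Yap-off organoids (log2 difference 4.35, SE 0.10, adjusted p = 3.87e-07), which is 20.3-fold. The spread within either group was small beside that gap. Egln1, the main prolyl hydroxylase that senses oxygen, was at 7.86, 7.66 and 7.53 in Yap-on and at 6.95, 6.88 and 6.93 in Yap-off organoids, a rise of only 0.76 (SE 0.11, adjusted p = 0.00273). Within each array Egln3 exceeded Egln1 by 2.05 to 2.24 in Yap-on organoids and lay 1.31 to 1.49 under it in Yap-off organoids on the log2 scale, which shows unequal change but not the ratio of the transcripts. The log2 ratios of gene pairs given below are likewise ratios of array intensities, not of transcripts.

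Ankrd37, an ankyrin repeat protein known as a HIF target, stood at 7.45, 7.65 and 7.69 in Yap-on organoids and at 5.40, 3.77 and 4.10 in Yap-off organoids (difference 3.18, SE 0.39, adjusted p = 0.0013). Yap-off library 1 was above its group, and the other 2 lay under the array median. Adm, the vessel-dilating peptide adrenomedullin, was at 5.52, 5.98 and 5.49 in Yap-on and 3.66, 3.87 and 3.86 in Yap-off organoids (difference 1.87, SE 0.16, adjusted p = 0.000221), with all Yap-off values under the array median. P4ha2 and P4ha1, catalytic subunits of the enzyme that hydroxylates collagen prolines, rose together. P4ha2 was at 7.29, 7.63 and 6.91 in Yap-on and at 5.41, 5.74 and 5.59 in Yap-off organoids (1.70, SE 0.19, adjusted p = 0.000904). P4ha1 was at 6.66, 6.46 and 6.07 in Yap-on and at 4.42, 4.49 and 5.57 in Yap-off organoids (1.57, SE 0.33, adjusted p = 0.0116). Yap-off library 3 was the nearest to the Yap-on values of P4ha1, and without Yap-on library 1 its adjusted p was 0.0509.

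Ndrg1, a stress-induced cytoplasmic protein, rose by 1.44 (SE 0.22), Vegfa, the growth factor of blood vessels, by 1.27 (SE 0.20), Kdm3a, a histone demethylase that needs oxygen, by 1.19 (SE 0.20) and Mxi1, an antagonist of Myc, by 0.94 (SE 0.17). Their limma adjusted p-values lay between 0.00346 and 0.0066. Not every gene of the group moved. Bnip3, a mitophagy receptor and a well-known HIF target, stood at 8.38, 8.68 and 8.0 in Yap-on and at 8.37, 8.95 and 9.32 in Yap-off organoids, with a difference of -0.52 (95% interval -1.17 to 0.12, adjusted p = 0.174). Without Yap-off library 1 it was called lower, at -0.78 (adjusted p = 0.0359). Ddit4, an inhibitor of mTOR signalling, differed by -0.02 (interval -0.38 to 0.35) and overlapped. Higd1a, a mitochondrial protein induced by hypoxia, has 2 rows on the array that disagree: the brighter row used here gave -0.32 (interval -0.73 to 0.09), while the dimmer one gave 1.41 (adjusted p = 0.00632).

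**Figure D2:**
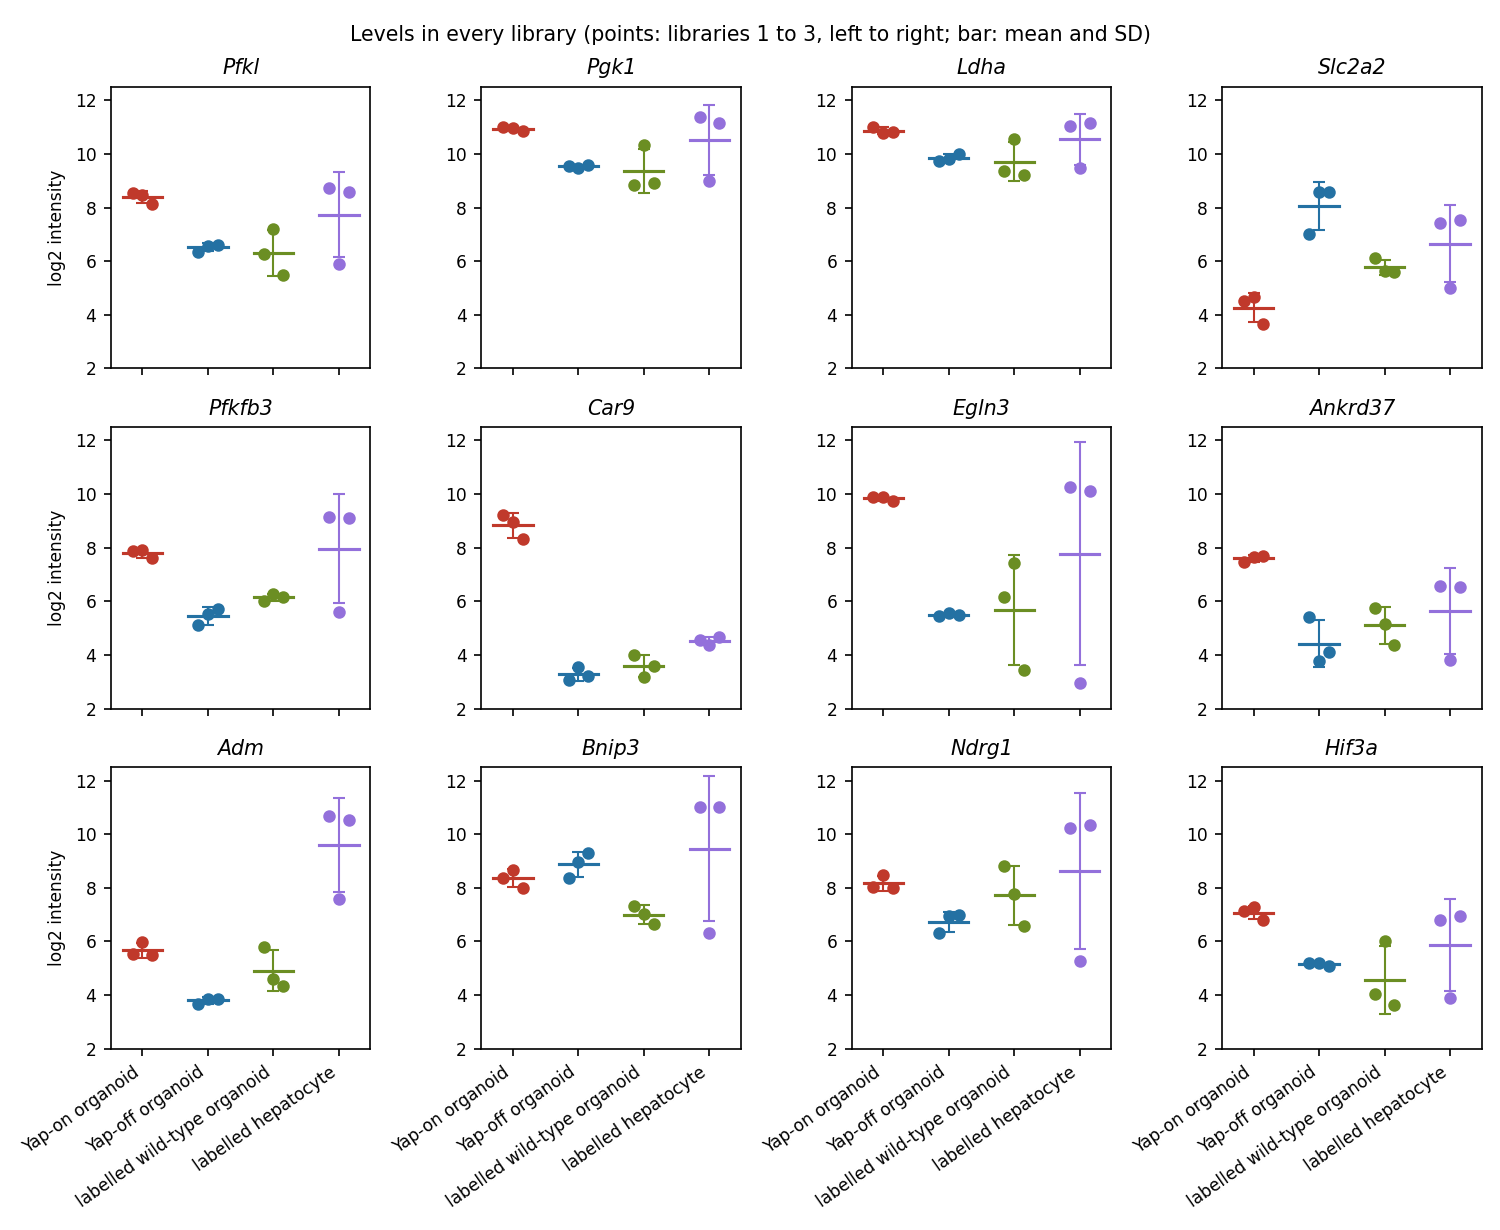
Log2 intensity (vertical axis) of 12 members in every library, with points for libraries 1 to 3 from left to right and bars for the group mean and SD. Egln3 lies at 9.74 to 9.91 in Yap-on and 5.46 to 5.56 in Yap-off organoids, and in the labelled hepatocyte group library 2, at 2.97, lies apart from libraries 1 and 3, at 10.25 and 10.11.

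Of the enzymes, the phosphofructokinases that catalyse the committed step rose clearly. Pfkl, the liver-type subunit, stood at 8.55, 8.48 and 8.12 in Yap-on and at 6.36, 6.58 and 6.62 in Yap-off organoids (difference 1.86, SE 0.14, adjusted p = 0.000155). Pfkp, the platelet-type subunit, stood at 8.17, 8.16 and 8.06 in Yap-on and at 6.19, 6.18 and 6.72 in Yap-off organoids (difference 1.77, SE 0.16, adjusted p = 0.000322). Both pairs of groups were far apart, and the log2 ratio of Pfkl to Pfkp overlapped, at 0.06 to 0.37 in Yap-on and -0.10 to 0.40 in Yap-off organoids. The muscle-type subunit Pfkm rose less, by 0.83 (SE 0.16, adjusted p = 0.00902).

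Aldolases split the phosphorylated sugar that phosphofructokinase makes. Aldoa, the widespread form, stood at 11.64, 11.71 and 11.53 in Yap-on and at 10.63, 10.43 and 10.35 in Yap-off organoids (1.15, SE 0.11, adjusted p = 0.000463). Aldoc, the form known from brain, stood at 8.45, 8.80 and 8.50 in Yap-on and at 4.85, 7.15 and 6.58 in Yap-off organoids (2.39, SE 0.54, adjusted p = 0.0162). The Yap-off libraries were far apart for Aldoc, library 1 being lowest, and the call was lost without Yap-on library 1 (adjusted p = 0.0537) or Yap-on library 2 (0.0604). The log2 ratio of Aldoc to Aldoa was -3.19 to -2.91 in Yap-on and -5.78 to -3.28 in Yap-off organoids, without overlap.

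Pgk1, the first ATP-making enzyme of the pathway and a gene of the X chromosome, stood at 11.01, 10.96 and 10.87 in Yap-on and at 9.54, 9.47 and 9.60 in Yap-off organoids (1.41, SE 0.09, adjusted p = 7.13e-05). Pkm, the pyruvate kinase of most tissues, was at 11.03, 10.77 and 10.83 in Yap-on and 10.21, 9.53 and 9.47 in Yap-off organoids (1.14, SE 0.21, adjusted p = 0.00676), and its other row gave 1.35. Pklr, the pyruvate kinase of liver and red cells, stood at 6.54, 6.60 and 6.42 in Yap-on and at 6.46, 6.41 and 6.81 in Yap-off organoids and overlapped (-0.04, interval -0.36 to 0.27). The log2 ratio of Pkm to Pklr was thus 4.17 to 4.50 in Yap-on and 2.66 to 3.75 in Yap-off organoids. Ldha, which makes lactate, rose by 1.02 (SE 0.12, adjusted p = 0.00101), Pgam1, a mutase, by 0.52 (SE 0.09, adjusted p = 0.00533) and Tpi1, an isomerase, by 0.51 (SE 0.10, adjusted p = 0.0107).

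The hexokinases, which trap glucose in the cell, gave the least settled values. Hk2, the inducible form, stood at 5.44, 5.30 and 4.99 in Yap-on and at 4.80, 4.73 and 4.32 in Yap-off organoids (0.62, SE 0.17, adjusted p = 0.0347). That call was lost without Yap-off library 2 (adjusted p = 0.0525) or 3 (0.0757), or without Yap-on library 1 (0.124) or 2 (0.108). Hk1, the constitutive form, stood at 10.31, 10.15 and 10.40 in Yap-on and at 10.19, 10.19 and 10.09 in Yap-off organoids by its brighter row (0.13, interval -0.11 to 0.38). Its dimmer row averaged 7.07 in Yap-on and 5.39 in Yap-off organoids, a difference of 1.68 (adjusted p = 0.00461), so the Hk1 rows do not give 1 answer. Eno2, the neuronal enolase, was at 3.38, 3.27 and 3.36 in Yap-on and 3.17, 3.58 and 3.67 in Yap-off organoids, under every array median.

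Transport and flux genes held the largest fall. Slc2a2, the glucose transporter of hepatocytes, stood at 4.50, 4.66 and 3.64 in Yap-on and at 7.02, 8.58 and 8.56 in Yap-off organoids (difference -3.78, SE 0.47, adjusted p = 0.00133), which is 13.8-fold lower. Yap-on library 3 lay under its array median of 4.17 and the others close above theirs, so this fold rests on low values and is rough. Slc2a1, the transporter of most dividing cells, stood at 9.65, 9.65 and 9.15 in Yap-on and at 8.94, 9.0 and 9.04 in Yap-off organoids (difference 0.49, SE 0.15, adjusted p = 0.049). This small rise lost its call under 9 of 15 alternatives (other thresholds and the fit on all 12 arrays left aside), with adjusted p = 0.0797 to 0.0949 without any 1 Yap-off library and 0.163 and 0.156 without Yap-on library 1 or 2. The log2 ratio of Slc2a1 to Slc2a2 within an array was 4.99 to 5.51 in Yap-on and 0.42 to 1.92 in Yap-off organoids.

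Pfkfb3, which makes the sugar phosphate that activates phosphofructokinase, stood at 7.87, 7.91 and 7.61 in Yap-on and at 5.10, 5.53 and 5.72 in Yap-off organoids (2.34, SE 0.18, adjusted p = 0.000138). Pfkfb4, its paralogue, was under the array median in all 6 arrays, at 3.33 to 3.41 and 2.84 to 3.35 in Yap-on and Yap-off organoids. Pdk1, the kinase that keeps pyruvate out of mitochondrial oxidation, stood at 7.46, 7.35 and 7.02 in Yap-on and at 5.45, 5.84 and 5.44 in Yap-off organoids (1.71, SE 0.17, adjusted p = 0.000433). Slc16a3, which exports lactate, stood at 6.22, 5.95 and 6.27 in Yap-on and at 4.66, 4.92 and 5.11 in Yap-off organoids (1.25, SE 0.15, adjusted p = 0.00111). For each of Pfkfb3, Pdk1 and Slc16a3 the lowest Yap-on library was above the highest Yap-off library.

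The transcripts of the HIF alpha subunits did not move alike. Hif1a, whose protein is controlled mainly through its stability, stood at 6.95, 6.83 and 6.72 in Yap-on and at 7.22, 5.88 and 6.62 in Yap-off organoids and overlapped (0.26, interval -0.48 to 1.00, adjusted p = 0.525). Hif3a, a subunit that can restrain the others and is itself induced by hypoxia, stood at 7.13, 7.28 and 6.81 in Yap-on and at 5.18, 5.21 and 5.09 in Yap-off organoids (1.91, SE 0.14, adjusted p = 0.000105). Epas1, the alpha subunit prominent in endothelium and liver and a gene of the wider hypoxia list, was lower, at 7.00, 7.27 and 6.48 in Yap-on and 9.18, 9.39 and 9.70 in Yap-off organoids (-2.51, SE 0.23, adjusted p = 0.000323).

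Genes of the same or adjoining pathways outside the 38 were read against the shares of all genes called, 19.1% higher and 12% lower. Of 28 measured genes of the wider hypoxia pathway, 5 were higher and 5 lower in Yap-on organoids, with a median log2 difference of 0.10. Those higher included Gys1, muscle glycogen synthase (1.71, SE 0.37), Stc2, a secreted glycoprotein (1.28, SE 0.26), Kdm4c, a histone demethylase (1.23, SE 0.10), and Bnip3l, the mitophagy receptor related to Bnip3 (0.98, SE 0.10). Besides Epas1, Gbe1, the glycogen branching enzyme (-1.42, SE 0.20), Insig2, a regulator of sterol synthesis (-1.19, SE 0.23), and Plod1, a collagen lysyl hydroxylase (-1.13, SE 0.16), were lower. Of 22 other measured genes listed with glycolysis, 4 rose, Pgm2 (1.49), Bpgm (1.41), Pfkfb2 (1.32) and the X-linked Pdha1 (1.13), and 3 fell, the monocarboxylate transporter Slc16a7 (-4.18), the mitochondrial pyruvate carrier subunit Mpc1 (-1.31) and the fructose kinase Khk (-1.18). The median of the 22 was -0.09, against -0.08 over all genes. That list goes beyond glycolytic steps, with pyruvate dehydrogenase subunits and kinases among its genes. Some, such as Slc2a4, lay under every array median.

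Genes listed with gluconeogenesis mostly ran the other way. Of 10 measured, 7 were lower and 3 higher in Yap-on organoids, with a median log2 difference of -2.19, against 12% lower and 19.1% higher of all genes. The 7 include Gpd1, a glycerol phosphate dehydrogenase, and Mlxipl, a transcription factor, which are not steps from pyruvate to glucose. Gpd1 averaged 6.44 in Yap-on and 7.83 in Yap-off organoids, and Mlxipl 4.57 and 7.03. Fbp1, the fructose bisphosphatase of liver, stood at 3.02, 2.94 and 3.20 in Yap-on and at 6.89, 8.68 and 8.70 in Yap-off organoids (-5.04, SE 0.47, adjusted p = 0.00037). Pck1, the enzyme that makes phosphoenolpyruvate in the cytosol, stood at 3.73, 3.80 and 3.59 in Yap-on and at 8.05, 8.77 and 8.40 in Yap-off organoids (-4.70, SE 0.19, adjusted p = 5.60e-06). G6pc, which releases free glucose, stood at 3.04, 3.26 and 3.08 in Yap-on and at 6.75, 6.83 and 6.47 in Yap-off organoids (-3.56, SE 0.13, adjusted p = 3.49e-06). All Yap-on values of these 3 genes lay under the array median. Slc37a4, the transporter that feeds G6pc, fell by 2.59 on the log2 scale (SE 0.32). The 3 genes that rose were the muscle-type bisphosphatase Fbp2 (2.48, SE 0.17), the mitochondrial Pck2 (1.01, SE 0.21) and the widespread phosphatase subunit G6pc3 (0.88, SE 0.20). With all 12 arrays in the fit, 4 genes of the list were lower and 1 higher, against 4.36% and 7.09% of all genes. These falls ran with that of the 8 hepatocyte markers given above.

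**Figure D3:**
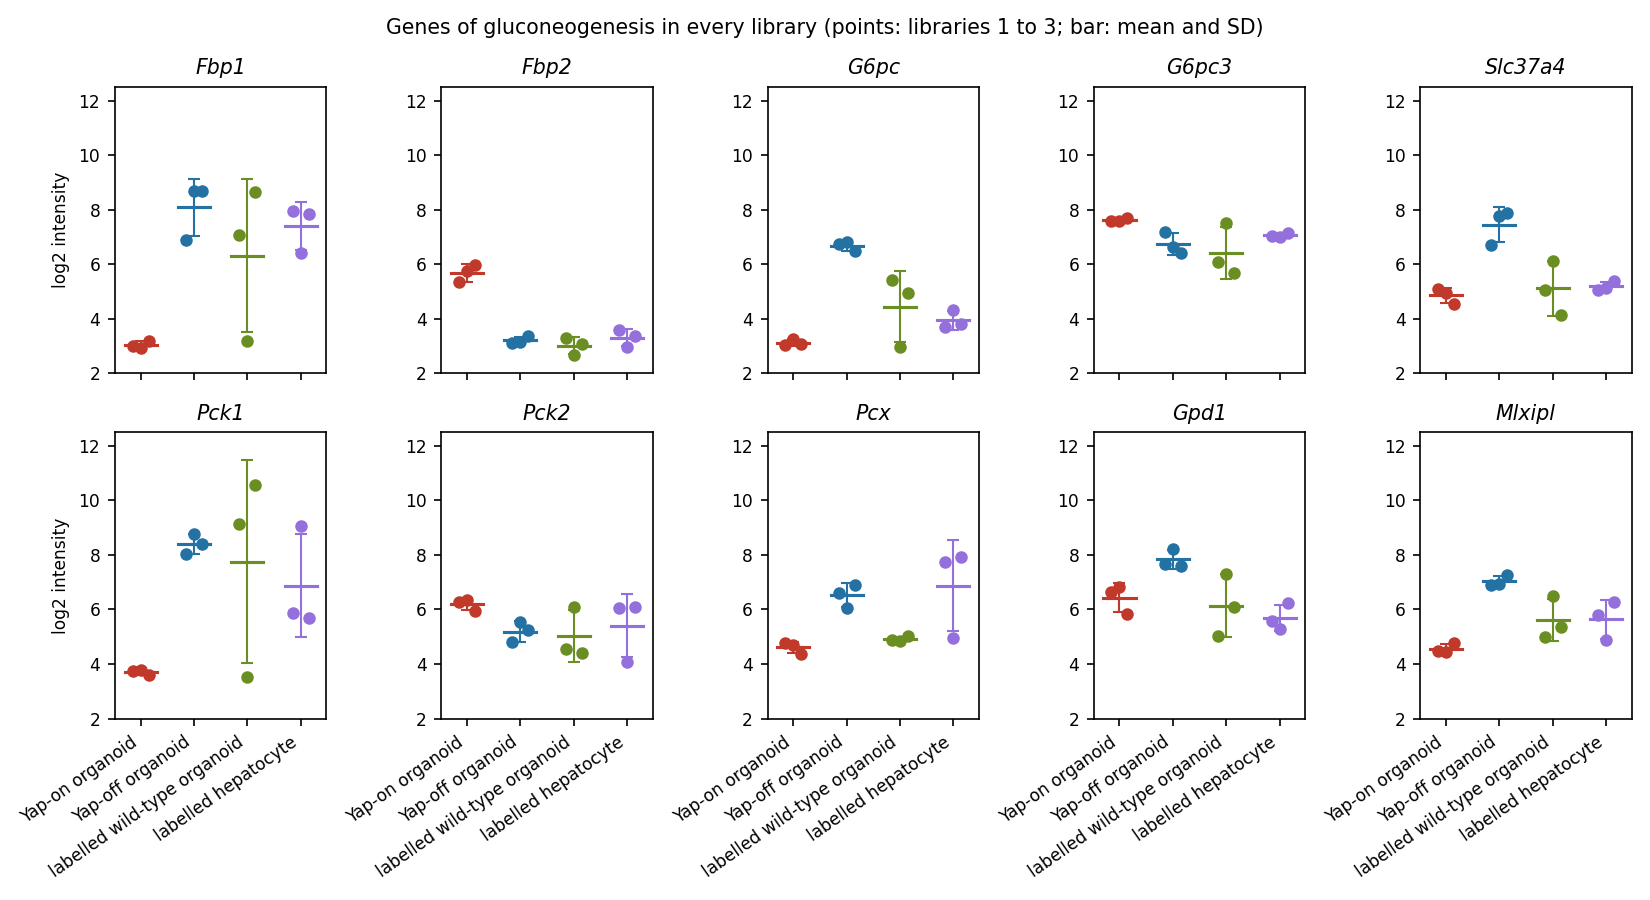
Log2 intensity (vertical axis) of the 10 genes listed with gluconeogenesis in every library, with points for libraries 1 to 3 and bars for the group mean and SD. Fbp1, Pck1 and G6pc lie at 2.94 to 3.80 in Yap-on organoids and at 6.47 to 8.77 in Yap-off organoids.

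Over all 12 arrays, enzymes and hypoxia-induced genes were compared as role averages, each gene centred on its mean over the arrays. The enzymes averaged 0.50 to 0.64 in Yap-on and -0.47 to -0.27 in Yap-off organoids, -0.89, 0.05 and -1.12 in wild-type organoids 1 to 3 and 1.01, -0.69 and 0.95 in hepatocytes 1 to 3. The hypoxia-induced genes averaged 0.62 to 0.91 in Yap-on and -0.90 to -0.76 in Yap-off organoids, -0.52, -0.63 and -1.24 in wild-type organoids 1 to 3 and 1.69, -0.85 and 1.69 in hepatocytes 1 to 3. Both averages were thus highest in the libraries labelled hepatocyte 1 and 3, followed by the Yap-on organoids. The gap between the roles depended on the summary. By means, the hypoxia-induced genes lay 0.68 under the enzymes in wild-type organoid 2, 0.68 and 0.74 above them in hepatocytes 1 and 3, 0.12 to 0.29 above them in Yap-on and 0.43 to 0.55 under them in Yap-off organoids. By medians over the same genes, they lay 0.68 under the enzymes in wild-type organoid 2 and 0.44 and 0.29 above them in hepatocytes 1 and 3. In Yap-on organoids the medians turned the direction, with the hypoxia-induced genes 0.15 to 0.21 under the enzymes, and in Yap-off organoids they lay 0.23 to 0.59 under them. The Yap-on means include Car9 and Egln3, whose levels stood far above their own means over the arrays.

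**Figure D4:**
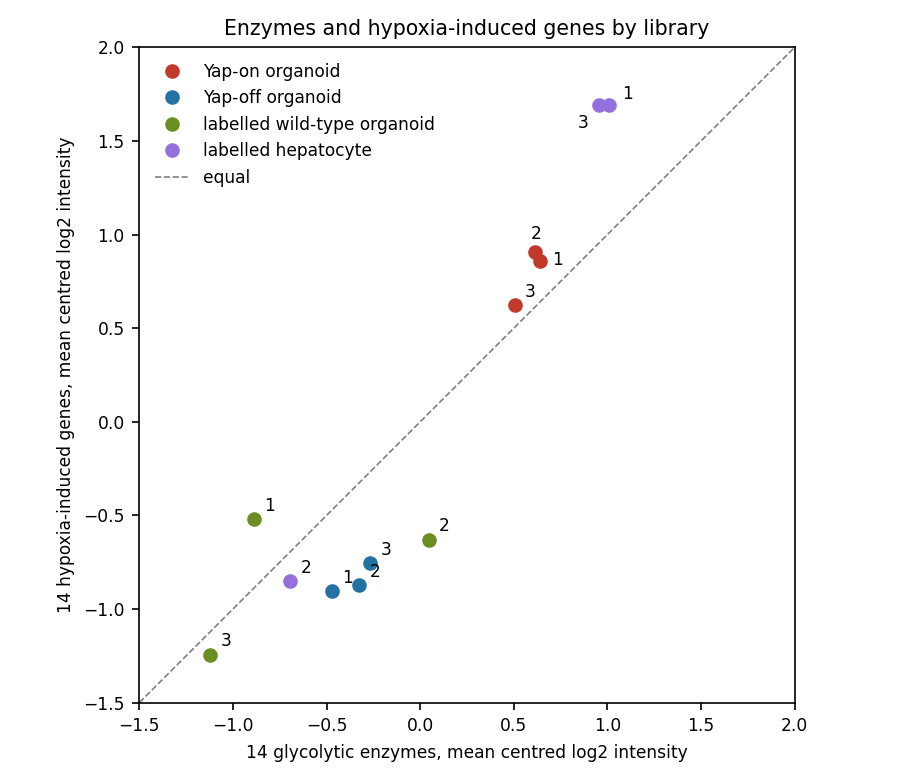
Mean centred log2 intensity of 14 hypoxia-induced genes (vertical axis) against that of 14 glycolytic enzymes (horizontal axis), 1 point a library with its number, and a dashed line where both are equal. Yap-on organoids lie at 0.50 to 0.64 and 0.62 to 0.91, and hepatocytes 1 and 3 lie farthest up, while hepatocyte 2 lies with the low libraries.

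Libraries labelled hepatocyte 1 and 3 were both above all other 10 arrays for 23 of 36 genes, 9 enzymes and 9 hypoxia-induced genes among them, as were 5.92% of all genes. All 3 Yap-on libraries were above the other 9 arrays for 3 of 36 genes, Aldoc, Car9 and Ankrd37, against 7.58% of all genes. For Car9 the other arrays lay at 3.98, 3.19 and 3.58 in wild-type organoids and at 4.56, 4.37 and 4.66 in hepatocytes. Egln3 stood at 6.15, 7.43 and 3.44 in wild-type organoids and at 10.25, 2.97 and 10.11 in hepatocytes, so that hepatocytes 1 and 3 were as high as Yap-on organoids. For Adm the libraries labelled hepatocyte, at 10.66, 7.57 and 10.53, were above every other array, and wild-type organoids were at 5.79, 4.60 and 4.35. The order for Bnip3, at 7.33, 7.04 and 6.65 in wild-type organoids and 11.02, 6.33 and 11.02 in hepatocytes, put both Yap groups between hepatocytes 1 and 3 and the rest. Wild-type organoid 2 lay above the Yap-off and under the Yap-on libraries for 16 of 36 genes, against 8.02% of all genes, and under hepatocytes 1 and 3 for 34 of 36, against 50.6% of all genes.

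**Figure D5:**
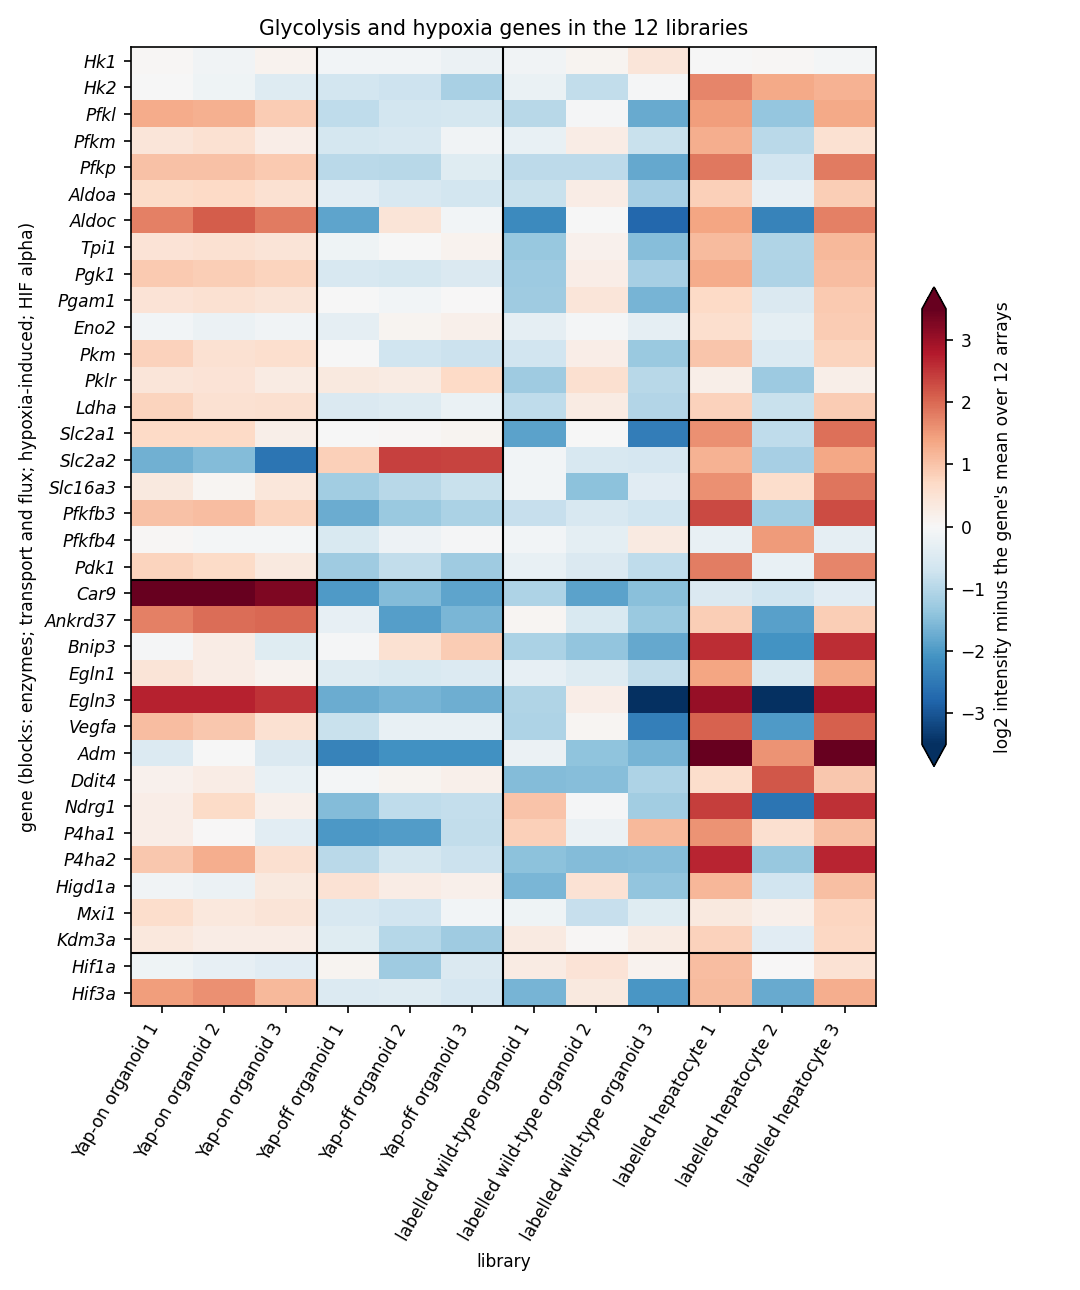
Log2 intensity minus the gene's mean over 12 arrays (colour) for 36 genes (rows, in blocks by role) and 12 libraries (columns). Car9 is high in the 3 Yap-on libraries alone, and hepatocytes 1 and 3 are above all other libraries for 23 genes. Hepatocyte 2 is low for most genes but high for some, Adm, Ddit4 and Pfkfb4 among them.

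Against wild-type organoids, 3 genes were higher in Yap-on organoids and 0 lower (limma, all 12 arrays), against 4.02% and 1.45% of all genes. Car9 was higher by 5.25 (SE 0.26, adjusted p = 1.04e-06), Ddit4 by 1.41 (SE 0.34, adjusted p = 0.0427) and Mxi1 by 0.94 (SE 0.22, adjusted p = 0.0389). Leaving out hepatocyte library 2 and wild-type organoid library 2, 26 were higher and 2 lower, against 24.6% and 16.4% of all genes. The wild-type libraries kept are those with high Lyz2 and high endothelial, neutrophil and lymphocyte markers. In that fit P4ha1 (-1.01, SE 0.34) and Slc2a2 (-1.58, SE 0.47) were the genes lower in Yap-on organoids. In Yap-off organoids, P4ha1 alone was called against wild-type organoids, at -2.19 (SE 0.42, adjusted p = 0.0304), where 1.42% of all genes were called higher and 1.19% lower. P4ha1 stood at 7.26, 6.24 and 7.56 in wild-type organoids and was above all Yap-off libraries in each. Without the 2 libraries, 15 genes were higher and 6 lower in Yap-off organoids, against 18.2% and 14.1% of all genes.

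Against the libraries labelled hepatocyte, Car9 was higher (4.31, SE 0.26, adjusted p = 4.09e-06) and Hk2 (-1.62, SE 0.24, adjusted p = 0.00247) and Adm (-3.92, SE 0.72, adjusted p = 0.00941) lower in Yap-on organoids, where 4.26% of all genes were called higher and 1.93% lower. Hk2 stood at 7.15, 6.77 and 6.67 in these hepatocyte libraries, above all Yap-on values in each, and was the only enzyme called. Without the 2 libraries, 1 gene was higher and 19 lower in Yap-on organoids, against 12.4% and 9.17% of all genes. The sign of 12 of the 36 differences changed with that step, Egln3, Pfkl, Pgk1 and Ldha among them, and the enzyme median was -0.29, against 0.14 with all 12 arrays. The 19 were 4 enzymes, 5 of the 6 transport and flux genes, 9 hypoxia-induced genes and Hif1a. Bnip3 was lower at -2.66 (SE 0.30), P4ha2 at -1.73 (SE 0.19), Slc16a3 at -1.47 (SE 0.18) and Pfkfb3 at -1.34 (SE 0.18), whereas Egln3 at -0.34 (SE 0.58, adjusted p = 0.717) and Ldha at -0.22 (SE 0.13, adjusted p = 0.283) did not pass.

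Yap-off organoids had 0 genes higher and 6 lower than the libraries labelled hepatocyte, against 0.878% and 1.02% of all genes. They were Hk2 (-2.25, SE 0.24), Slc16a3 (-2.35, SE 0.38), Pdk1 (-2.20, SE 0.47), Car9 (-1.26, SE 0.26), Adm (-5.79, SE 0.72) and P4ha1 (-2.67, SE 0.42). All Yap-off values of Car9 and Adm lay under the array median. Car9 in the hepatocyte libraries, at 4.37 to 4.66, lay only close above it, so its call compares low values. Without the 2 libraries 32 of 36 were lower and 0 higher, against 8.78% and 5.23% of all genes, among them 12 of 14 enzymes and 14 of 14 hypoxia-induced genes. Between wild-type organoids and the libraries labelled hepatocyte, Hk2 (-1.78, SE 0.24, adjusted p = 0.0468) and Ddit4 (-2.61, SE 0.34, adjusted p = 0.0461) were lower, where 0.0251% of all genes were called lower and 0.0251% higher. Without the 2 libraries 29 were lower and 0 higher, where 18.3% of all genes were lower and 12.4% higher. The comparisons against hepatocytes share those 3 control libraries, and those against wild-type organoids share theirs.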

How the data were processed

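RNA extracted with the Qiagen microRNEasy kit was amplified and labelled with the Nugen Pico WT kit, per the labels' protocols. The authors deposited 1 intensity per array row on a linear scale after RMA, which corrects background, equalises the arrays and summarises probes, per the submitters' processing notes; version and genome build are not given in the sources used here, and detection calls were not used. Of 34760 rows, 21640 named 1 gene in the platform annotation, and the row with the highest mean was kept for each of 19937 genes, of which 954 had several rows. Log2 values were tested with limma 3.58.1 in R 4.3.3 (lmFit, eBayes, two-sided, Benjamini-Hochberg over all genes, called under 0.05), after the procedure had been tested on simulated data. Yap-on and Yap-off organoids were compared on their own 6 arrays, since the other groups mix unlike libraries, and the other comparisons used all 12 arrays. With 3 arrays a group, their number limits the precision, and an exact permutation test of 1 gene cannot go below 0.1. Members, gene lists, markers and the choice of arrays were made with earlier results of these data known. Every listed member could be named; values in every array were given for the members of a role with the largest called differences and for isozyme pairs. Tables and figures were made with Python 3.11.15, pandas 2.3.3 and matplotlib 3.10.9.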

Additional observations from a re-analysis of the deposited data

How the results depend on the processing

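The count of genes called between Yap-on and Yap-off organoids was 28 (31.2% of all genes were called in either direction), with a range of 24 to 28 when 1 library was left out, and was 7 with all 12 arrays in the fit (11.5%), where the error is shared with the mixed groups. The median log2 difference of the enzymes was 0.93 and became 1.09 with the most variable row of a gene, and was 0.85 to 0.99 with 1 library left out. That of the hypoxia-induced genes was 1.36, became 1.16 after another quantile normalization and was 1.25 to 1.48 with 1 library left out. Higd1a changed sign with the mean of its rows (0.55) and with the most variable row (1.41). In Yap-on organoids against hepatocytes, 12 of 36 genes changed sign when hepatocyte library 2 and wild-type organoid library 2 were left out, of which Tpi1 (-0.63) and Vegfa (-1.24) were then called; the other comparisons had 0 to 3 such genes, none called. The counts of the other comparisons moved widely, as did in most settings the share of all genes called, given in parentheses, and the cause was not tested. For Yap-on against wild-type organoids the count of 3 (5.47%) became 6 with the 6 arrays alone (3.51%), 1 after quantile normalization (5.6%), 25 with array weights (41.6%), 1 at an adjusted p under 0.01 (2.73%), 28 without the 2 libraries (41%) and 1 to 17 with 1 library left out (17 without wild-type organoid 2, 30.2%). For Yap-off against wild-type organoids the count of 1 (2.61%) became 0 with the 6 arrays (0.306%), 11 with array weights (26.1%), 0 at 0.01 (0.346%), 21 without the 2 libraries (32.3%) and 0 to 7 with 1 left out (7 without wild-type organoid 2, 19.4%). For Yap-on organoids against hepatocytes the count of 3 (6.19%) became 18 with array weights (31.8%), 20 without the 2 libraries (21.6%) and 3 to 12 with 1 left out (12 without hepatocyte 2, 9.71%). For Yap-off organoids against hepatocytes the count of 6 (1.9%) became 2 with the 6 arrays (0.717%), 30 with array weights (12.2%), 2 at 0.01 (0.421%), 32 without the 2 libraries (14%) and 2 to 18 with 1 left out (18 without hepatocyte 2, 4.2%). For wild-type organoids against hepatocytes the count of 2 (0.0502%) became 0 with the 6 arrays (0%), 0 after quantile normalization (0.0251%), 0 with an intensity trend (0.01%), 27 with array weights (27.2%), 0 at 0.01 (0%), 29 without the 2 libraries (30.7%) and 0 to 18 with 1 left out (18 without hepatocyte 2, 4.36%, and 8 without wild-type organoid 2, 8.05%).

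Replicate numbers are shared between groups, but deviations of same-numbered libraries from their group means correlated at only 0.07, 0.03 and -0.06 between Yap-on and Yap-off organoids. Between wild-type organoids and hepatocytes they correlated at -0.51, -0.71 and -0.66. In these 2 groups library 2 stood apart in opposite directions (Lyz2 at 6.19 and 12.04), so their correlations cannot show whether the numbers are pairs. The numbers were not taken as pairs. With the replicate block, 27 genes were called between Yap-on and Yap-off organoids (Slc2a1 was lost), 2 between Yap-on and wild-type organoids (Ddit4 lost), 0 between Yap-off and wild-type organoids (P4ha1 lost), 3 between Yap-on organoids and hepatocytes, 4 between Yap-off organoids and hepatocytes (Pdk1 and Car9 lost) and 0 between wild-type organoids and hepatocytes (Hk2 and Ddit4 lost).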
